A study of Mus musculus with 2 samples.

Results

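The STAT5 peaks described here lay in the bodies of protein-coding genes: the midpoint of each was inside such a gene and more than 1 kb from every end of a protein-coding gene. There were 2571 of them, out of 5908 peaks in the deposited list and 5901 on assembled chromosomes (43.6%, exact 95% interval 42.3 to 44.8). Gene positions came from a RefSeq table of GRCm38.p6, whose coordinates are those of mm10, the build of the peaks. Only positions chose these peaks, so no measured signal entered the choice.

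The peaks came from 1 STAT5 ChIP-seq library, for which 1 input library (chromatin with no antibody step) was also sequenced. Both were made from lymph node cells of a C57BL/6 mouse with B cell progenitor leukemia, of genotype Stat5b-CAxBlnk+/-, that is, with constitutively active Stat5b and a heterozygous mutation of Blnk, and every sample carried both. Cells had been held in 10 ng/mL IL7 for 30 minutes, then fixed. The values do not tell STAT5A, STAT5B and the active Stat5b product apart. The labels name a single leukemic mouse for each library and do not say whether it was the same animal. The promoter behind active Stat5b and the age of the mouse are not stated. No unstimulated, wild-type or replicate library was compared, so the values below have no spread between samples and no test between conditions. The intervals cover counting error only and treat peaks and genes as independent, although neighbouring peaks lie together. Read depth is unknown, the file holds no peak height, and no expression was measured, so the cell type could not be checked against its markers.

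STAT5A and STAT5B are latent transcription factors that JAK kinases phosphorylate at activated cytokine receptors, in B cell progenitors above all the IL7 receptor. Phosphorylated dimers enter the nucleus and bind the palindrome TTCNNNGAA, in which the 3 middle bases vary. Binding sites of such factors lie in promoters and, often, in introns, where enhancers of the same or another gene can be found. Exons and introns were not resolved here, and a peak inside a gene is not evidence that the gene is regulated by it.

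Although all 2571 peaks lay over 1 kb from gene ends, some lay within 1 kb of an annotated start. These include internal starts, those of shorter transcripts of the host gene or of a gene nested in it. RefSeq promoter windows (GRCm38.p6, 250 bases before to 50 after an annotated start) gave the annotated starts for every chromosome with such peaks except 18. Of 2487 peaks on the other chromosomes, 191 (7.68%, 6.66 to 8.80) lay within 1 kb of an annotated start, in 1.30% of the gene body length, 5.89 times the share by length (5.11 to 6.75). That is 15.3 peaks per Mb near such starts and 2.43 per Mb elsewhere in gene bodies. Starts of protein-coding genes alone had 153 peaks nearby, 7.58 times the share by length (6.46 to 8.83). Starts of other genes had 50 (3.76 times, 2.80 to 4.94). Starts just inside the host gene's own end were not set apart, so peaks just past the start of the gene can be included. The table of starts is not complete, so further peaks may lie near starts it does not hold.

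Peaks covered at least 150 bases of 72 promoter windows inside gene bodies. Of these, 59 belonged to the host gene itself (56 genes) and 13 to lncRNA genes. TTCNNNGAA, which reads alike on both strands, was present in 35 of the 72 windows (48.6%, 36.7 to 60.7), some of which overlap each other. Among 6599 windows in gene bodies that no such peak covered it was present in 7.93% (7.28 to 8.60), and among all 32851 promoter windows of this length in 8.30%. Windows covered by peaks at gene ends held it in 53.0% of 389 cases (47.9 to 58.0), an interval that overlaps that of the windows inside genes. The same arms with a spacer of 4 bases, TTCNNNNGAA, were in 6.94% of the 72 windows and 7.11% of the uncovered ones. The centre of a TTCNNNGAA match lay a median of 33 bp from the peak midpoint (quartiles 21 and 71.5 bp, 43 matches). For the spacer of 4 bases it was 15.5 bp, from only 5 matches. In windows covered by peaks at gene ends the medians were 36.0 bp and, with the spacer of 4 bases, 71.5 bp. Only windows covered by at least 150 bases were searched, which by itself limits how far a match can lie from the midpoint. Sequence outside these windows was not available to search, so most peaks were not examined for the motif.

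Shown here are the 250 bases before 7 such internal starts, 5′ to 3′ on the strand of the gene, with each TTCNNNGAA in capitals. The first 4 are the starts of host genes with more than 1 match in these bases. Bcl6 encodes a transcriptional repressor, Hdac7 a class IIa histone deacetylase, Stambpl1 a deubiquitinase and Zfp93 a zinc finger protein. Nfkb2 (the p100 and p52 subunit of NF-kB), Tnfrsf9 (the costimulatory receptor 4-1BB) and Txnrd1 (a thioredoxin reductase) have 1 match each and were chosen for their known roles after the values were seen.
Bcl6: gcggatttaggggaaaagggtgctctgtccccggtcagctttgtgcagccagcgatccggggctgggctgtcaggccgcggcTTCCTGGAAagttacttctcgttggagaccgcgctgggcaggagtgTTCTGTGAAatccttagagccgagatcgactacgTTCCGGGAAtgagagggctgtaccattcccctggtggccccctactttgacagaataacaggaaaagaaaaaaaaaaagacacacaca
Stambpl1: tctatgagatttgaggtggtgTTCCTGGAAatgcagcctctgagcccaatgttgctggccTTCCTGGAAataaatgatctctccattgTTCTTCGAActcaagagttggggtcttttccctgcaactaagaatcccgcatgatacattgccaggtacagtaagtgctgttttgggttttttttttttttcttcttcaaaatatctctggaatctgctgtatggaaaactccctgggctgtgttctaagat
Zfp93: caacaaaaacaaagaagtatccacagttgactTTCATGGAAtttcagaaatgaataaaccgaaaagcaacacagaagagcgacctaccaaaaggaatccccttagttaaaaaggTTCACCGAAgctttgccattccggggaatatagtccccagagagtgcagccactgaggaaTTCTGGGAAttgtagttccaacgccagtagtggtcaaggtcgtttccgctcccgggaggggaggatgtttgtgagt
Hdac7: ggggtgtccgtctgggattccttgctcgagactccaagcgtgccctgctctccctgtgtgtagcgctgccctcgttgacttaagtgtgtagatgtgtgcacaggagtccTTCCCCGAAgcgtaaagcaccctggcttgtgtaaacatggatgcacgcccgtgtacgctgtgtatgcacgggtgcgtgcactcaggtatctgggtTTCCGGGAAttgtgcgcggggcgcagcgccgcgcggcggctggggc
Nfkb2: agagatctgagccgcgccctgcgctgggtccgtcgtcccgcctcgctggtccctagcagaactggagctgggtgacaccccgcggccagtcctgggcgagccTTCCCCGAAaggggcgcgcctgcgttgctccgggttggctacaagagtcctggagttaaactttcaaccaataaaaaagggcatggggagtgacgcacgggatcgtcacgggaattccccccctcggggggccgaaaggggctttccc
Tnfrsf9: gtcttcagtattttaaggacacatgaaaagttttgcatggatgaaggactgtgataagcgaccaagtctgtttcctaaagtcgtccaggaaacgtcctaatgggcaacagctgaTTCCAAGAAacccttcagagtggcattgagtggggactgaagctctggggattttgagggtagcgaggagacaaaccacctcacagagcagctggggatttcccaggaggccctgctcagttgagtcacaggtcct
Txnrd1: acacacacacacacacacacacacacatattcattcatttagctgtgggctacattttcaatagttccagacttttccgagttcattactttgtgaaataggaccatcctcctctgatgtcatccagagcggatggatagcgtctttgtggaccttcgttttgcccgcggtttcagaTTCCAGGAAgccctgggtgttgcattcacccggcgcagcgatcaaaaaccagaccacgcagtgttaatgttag

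The Bcl6 stretch (chr16:23981284-23981533, minus strand) lies before a start 7583 bp into the gene, and its 3 matches begin 168, 122 and 88 bases before that start. A peak of 649 bp (chromosome 16, 23981067 to 23981715) covers the whole window. In Stambpl1 (chr19:34217258-34217507, plus strand) the start is 27130 bp into the gene, and a peak of 476 bp spans all 3 matches. In Zfp93 (chr7:24270168-24270417, plus strand) the start is 2434 bp in, with a 463 bp peak over 3 matches. The Hdac7 start (chr15:97831768-97832017, minus strand) is 12735 bp in, and its 236 bp peak was the narrowest of the 7. The starts of Nfkb2 (chr19:46304487-46304736, plus strand), Tnfrsf9 (chr4:150927749-150927998, plus strand) and Txnrd1 (chr10:82860091-82860340, plus strand) lay 3743, 7844 and 26390 bp into their genes. The Txnrd1 peak, 1046 bp wide, was among the 5 widest of all peaks in gene bodies.

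The 2571 peaks lay in 1706 host genes, 7.83% of the 21779 protein-coding genes. Long genes were hosts most often, but per base the longest held the fewest peaks. A peak was present in 0.674% of genes under 10 kb, 5.62% of genes of 10 to 30 kb, 12.9% of those of 30 to 100 kb, 25.6% of those of 100 to 300 kb and 29.1% of genes of 300 kb and over. Host genes had a median length of 69.8 kb, against 17.2 kb for all protein-coding genes. Counted per Mb of gene body over 1 kb from gene ends, genes of 10 to 30 kb had 4.06 peaks (3.68 to 4.46) and genes of 300 kb and over 1.15 (1.03 to 1.27), a ratio of 0.283 (0.245 to 0.326). These intervals do not overlap.

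**Figure D1:**
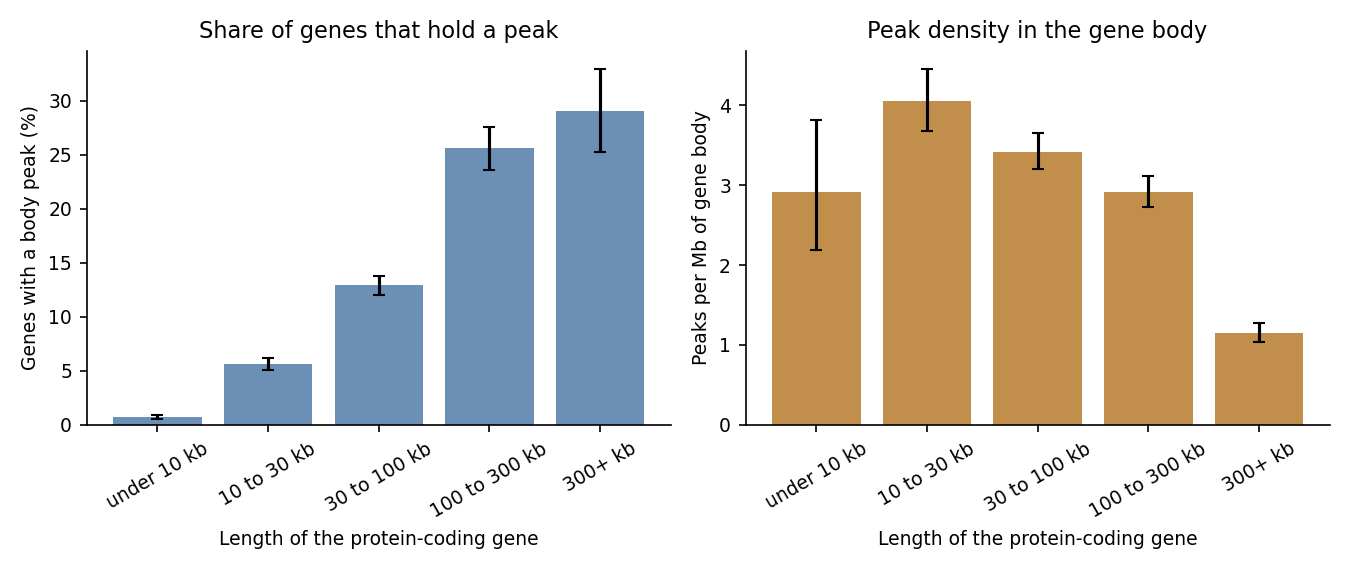
Share of protein-coding genes with at least 1 peak in the gene body (left) and peaks per Mb of gene body (right), by gene length, with exact 95% intervals for counting error as bars. The share rises from 0.674% to 29.1% with length, while the density falls from 4.06 per Mb in genes of 10 to 30 kb to 1.15 per Mb in genes of 300 kb and over.

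Very long genes ranged from many peaks to none. Of 227 genes of 500 kb or longer, 62 were hosts and 165 had no listed peak in the body. Of all 557 genes of 300 kb and over, 162 (29.1%) were hosts. The 9 longest protein-coding genes, named here after their values were seen, were all among these 165: Dmd, Ptprd, Cntnap2, Lsamp, Lrp1b, Macrod2, Dlg2, Csmd1 and Nrxn3, several of which encode proteins of muscle (Dmd) or of neurons and synapses (Cntnap2, Dlg2, Nrxn3). Fhit, next in length, had 3 peaks in 1612 kb. At the other extreme Foxp1 had 13 peaks in 597 kb. The variance of the number of peaks per gene, divided by its mean, was 1.03 in genes under 10 kb, 1.71 in genes of 30 to 100 kb and 3.28 in genes of 300 kb and over. Gene lengths also differ within a class.

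Most hosts had a single peak, but most peaks shared their host with another. A single peak was found in 1220 hosts (71.5%), 2 peaks in 278, 3 in 112 and 5 or more in 52. The 486 hosts with 2 or more peaks (28.5%) held 53.9% of all peaks in gene bodies, and the 52 hosts with 5 or more held 12.8%. Within a gene, neighbouring peak midpoints were a median of 11.3 kb apart (quartiles 2.84 and 36.2 kb, 910 gaps). Of these gaps, 35.9% were under 5 kb, and the smallest was 436 bp. In the 208 hosts with 3 or more peaks, the peaks spanned a median of 39.5% of the gene (51.9 kb). With peaks closer than 5 kb joined, 21.3% of hosts still had 2 or more.

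Of the 2571 peaks, 26 lay in more than 1 gene. One of them, on chromosome 18 (37801004 to 37801205), lay in 21 overlapping gene models, among them Pcdhga1 and Pcdhgb1 of the gamma protocadherin cluster, whose variable first exons share their last exons. Those 21 hosts rest on this peak alone, and without it there were 1685 hosts.

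The 15 genes with the most peaks had 6 to 13 each, with 11 genes tied at 6, of which the densest, Fli1, is included. Foxp1, which encodes a forkhead factor needed for early B cell development, had 13 peaks from 147 to 494 kb past the start, that is from 24.6% to 82.7% of the way through the gene. Cradd, which encodes a death-domain adaptor, had 11 in 149 kb, of which 4 lay between 21.4 and 26.0 kb and 3 between 66.8 and 68.7 kb. Cyth1, which encodes cytohesin 1, an exchange factor for ARF GTPases and integrin regulator, had 10 in 84.4 kb. Those were spread over the gene, from 1.56 to 68.7 kb past the start. Epb41l4b, a band 4.1 superfamily gene, also had 10, in 151 kb.

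Arid1b, which encodes a BAF chromatin remodeller subunit, had 10 peaks in 353 kb, and 8 of them formed 2 groups, at 90.0 to 97.2 kb and at 152 to 154 kb. Trio (an exchange factor for small GTPases, 9 peaks), Dst (a cytoskeletal linker, 9), Maml3 (a Notch coactivator, 8), Rad51b (a gene of homologous recombination, 8), Tenm4 (a teneurin, 8) and Rere (an atrophin family coregulator, 7) were all of 295 kb or longer. Runx1 had 8 peaks in 225 kb. A pair lay 1.02 and 4.08 kb past its start, and a pair at 129 kb, where a peak of 459 bp covered an internal promoter window with no TTCNNNGAA.

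Ets1 and its neighbour Fli1, both ETS factor genes on chromosome 9, had 9 peaks in 122 kb and 6 in 121 kb. Cds2, which encodes a CDP-diacylglycerol synthase of phospholipid metabolism, had 7 in only 58.7 kb. All 7 lay between 25.2 and 36.0 kb past its start, in 42.9% to 61.4% of the gene. The widest of them was 644 bp (chromosome 2, 132280643 to 132281286).

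**Figure D2:**
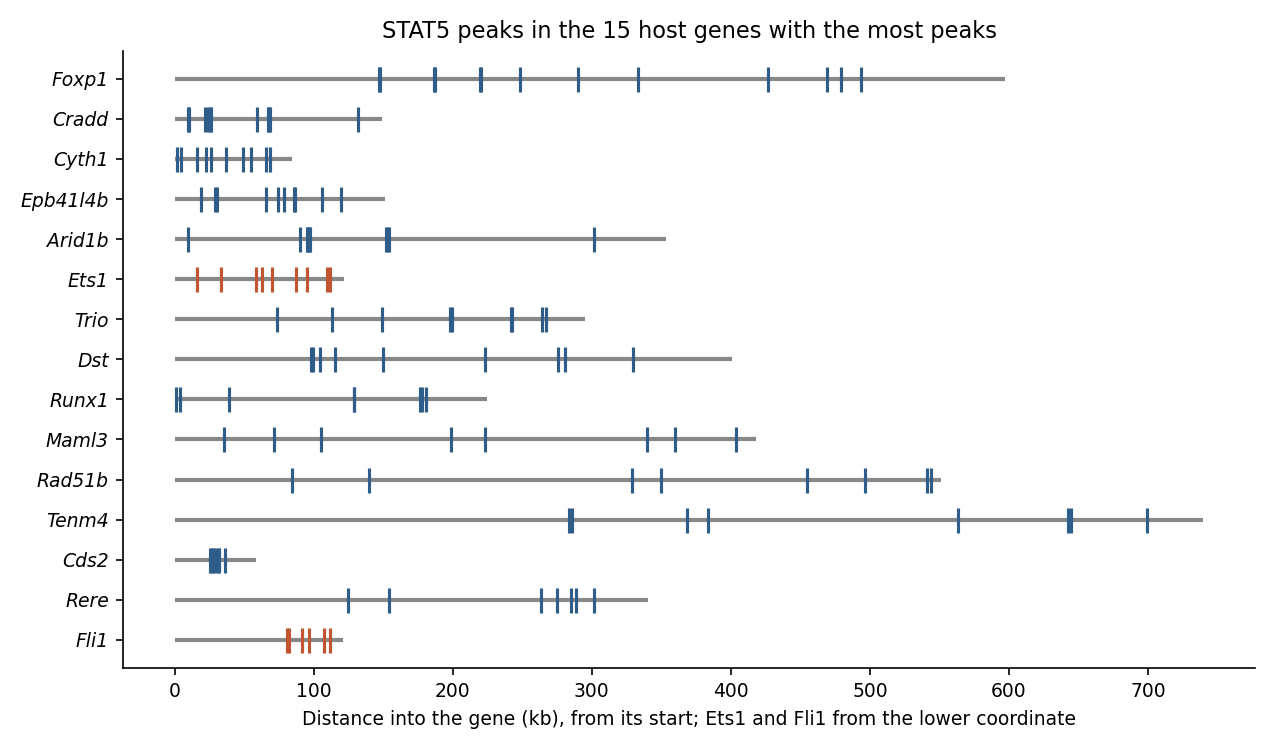
Positions of STAT5 peaks (vertical ticks) in the 15 host genes with the most peaks, drawn to scale in kb from the gene start (blue), or from the lower coordinate for Ets1 and Fli1, whose strand was not used (orange). Peaks of Cds2 and Arid1b stand in tight groups, while those of Cyth1 are spread along the gene.

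Ranked by density, other genes came first. Among hosts with 3 or more peaks, Ptger4, which encodes the prostaglandin E2 receptor EP4, had the highest density, 34.1 peaks per 100 kb of gene body, from 3 peaks in a gene of 10.8 kb. They lay at 2.23, 4.09 and 5.39 kb, and the first was 477 bp wide. Cmtm6, whose product stabilises PD-L1 at the cell surface, had 18.5 per 100 kb, with its 3 peaks 64.7%, 81.1% and 92.9% of the way through the gene. Asb2, which encodes a SOCS box subunit of ubiquitin ligases, had 15.2 per 100 kb from 5 peaks. Grk2 (a kinase of G protein-coupled receptors), Gna15 (a G protein alpha subunit) and Sav1 (a Hippo pathway scaffold) had 16.5, 14.9 and 14.2 per 100 kb from 3 peaks each. The 3 peaks of Sav1 all lay within 3.64 kb of its start. Tcf25 (12.7) and Ttc25 (12) were the others, and Cds2 (12.3) and Cyth1 (12.1) stood in both rankings.

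Position within the gene was measured from the start for the 2062 peaks with a host of known strand (1358 of 1706 hosts, 2080 pairs of peak and host). Peaks were moderately shifted toward the start: 56.0% (53.8 to 58.1) lay before the midpoint of the gene. With genes divided into 10 parts of equal length, the first part held 248 peaks, 1.44 times the number its length gave (1.27 to 1.64), and the second part 1.19 times (1.05 to 1.35). The eighth part was lowest, at 0.736 (0.627 to 0.860), and the last part was at 0.946 (0.806 to 1.10).

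The shift depended on gene length and on how far gene ends reach. In hosts of 100 kb or longer 50.5% lay before the midpoint (47.3 to 53.6), in those of 30 to 100 kb 58.7% (55.0 to 62.4) and in those under 30 kb 64.9% (59.9 to 69.6). With gene ends widened to 5 kb, the first part held 0.970 times its share by length, so it no longer held an excess. The first part of shorter genes then has no usable length, so the genes it describes change too.

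**Figure D3:**
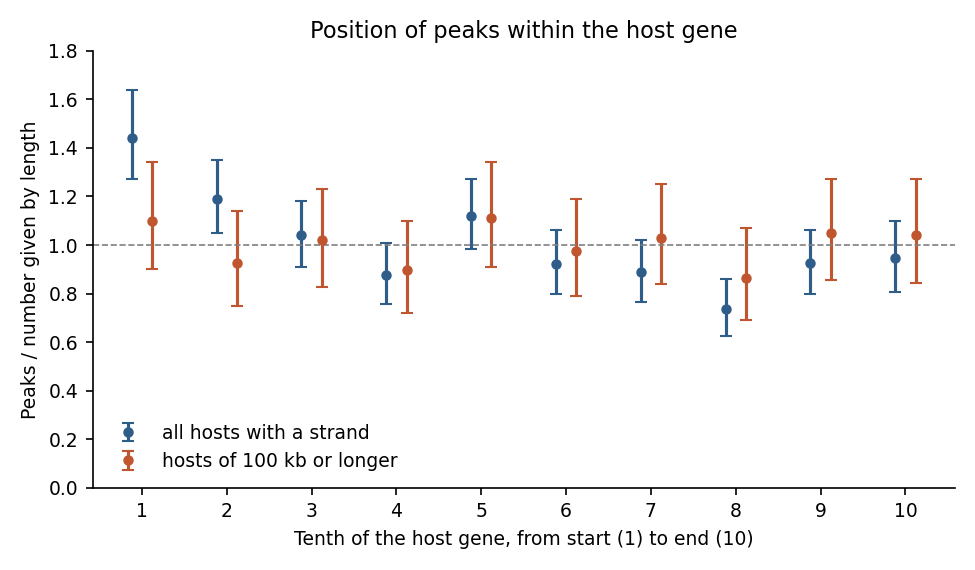
Number of peaks in each of 10 equal parts of the host gene, from start to end, divided by the number that the usable length of that part gives (1, dashed), with 95% Poisson intervals. Over all hosts the first part is at 1.44 and the eighth at 0.736, while in hosts of 100 kb or longer the intervals of all 10 parts include 1.

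By distance, density was highest just past the start. From 1 to 2 kb past the gene start there were 8.18 peaks per Mb of gene body (6.77 to 9.79), from 2 to 5 kb 4.41, from 5 to 10 kb 3.65, and from 50 to 100 kb 2.60. Toward the other end of the gene there was no such slope: 3.38 per Mb (2.50 to 4.47) from 1 to 2 kb before the end, 2.48 (2.02 to 3.02) from 2 to 5 kb and 3.47 (3.10 to 3.88) from 10 to 20 kb. From 20 to 50 kb density was higher on the side of the end, 3.41 (3.13 to 3.71), than on that of the start, 2.76 (2.51 to 3.03). In shorter genes, however, bases at this distance from the end also lie near the start, so the sides are not separate. In genes of 100 kb or longer the values of this band were 2.58 (2.17 to 3.03) and 2.44 (2.04 to 2.88). The density at 1 to 5 kb past the start was 1.99 times (1.63 to 2.43) that at 1 to 5 kb before the end. In genes of 100 kb or longer, where both sides offer nearly the same length, the values from 2 to 5 kb were 4.66 (3.05 to 6.83) past the start and 1.26 (0.506 to 2.60) before the end. In these long genes the intervals of both sides overlapped from 1 to 2 kb, at 6.56 (3.39 to 11.5) and 4.39 (1.89 to 8.65), and in every band from 5 to 50 kb. Annotated starts moved with the shift. With 1 kb around every annotated start left out, the first part was at 1.23 (1.06 to 1.42), and 53.6% of peaks lay before the midpoint. The part of annotated starts in the rest was not tested.

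**Figure D4:**
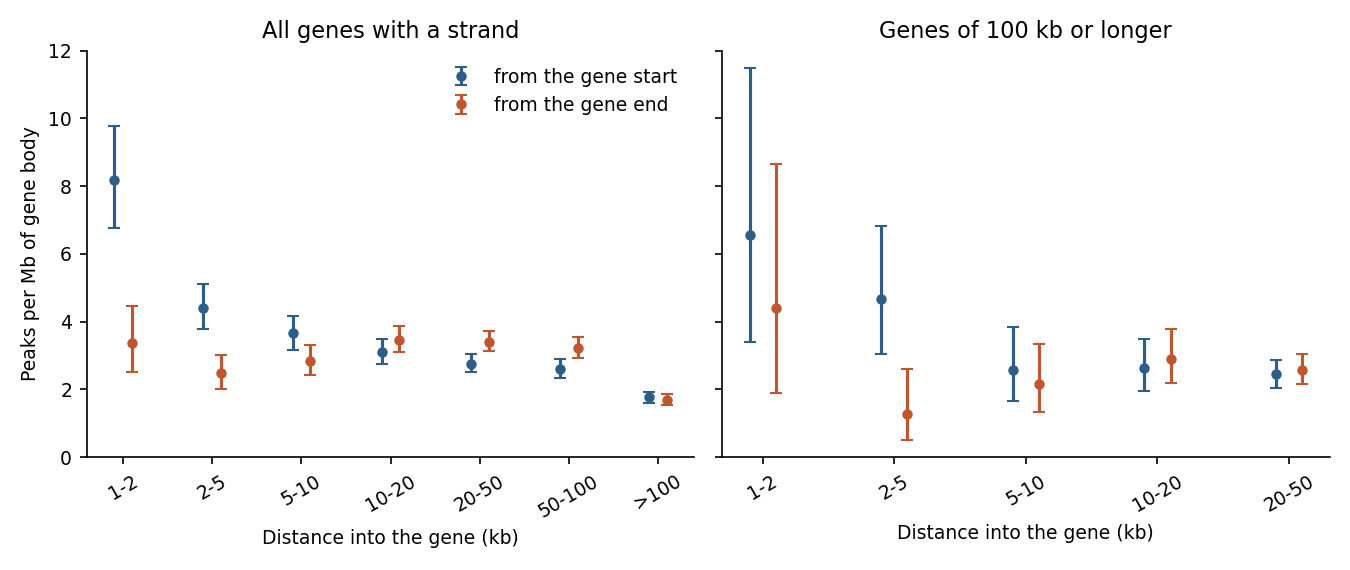
Peaks per Mb of gene body by distance from the gene start (blue) and from the gene end (orange), with 95% Poisson intervals, for all genes of known strand (left) and for those of 100 kb or longer (right). Density is highest from 1 to 2 kb past the start, at 8.18 per Mb over all genes, while over all genes the highest value on the side of the end is 3.47 per Mb, from 10 to 20 kb.

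Measured to the nearest end of any protein-coding gene, the median distance was 17447 bp (quartiles 5972 and 45594 bp). There were 222 peaks between 1 and 2 kb, 837 between 5 and 20 kb and 237 beyond 100 kb. For 170 peaks the nearest end was that of a gene other than the host. The peaks just inside the limit lay in Gm46752, Car12 and Camsap2, at 1004, 1005 and 1006 bp from a gene end, and those just outside, within genes, were nearest to Socs3, Shroom3 and Cyp2j9, at 998, 997 and 990 bp.

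Body peaks were more frequent in genes with another STAT5 peak nearby. Peaks within 20 kb outside a gene were counted only if they lay in no protein-coding gene and over 1 kb from all their ends. Genes whose only nearby peak lay in or at the end of a neighbouring protein-coding gene thus count as without one. Of genes of 30 to 100 kb with a peak within 20 kb outside the gene, 28.5% (23.9 to 33.5, 102 of 358) also had one in the body, against 11.7% (10.8 to 12.6) of the others. At 10 to 30 kb the shares were 16.0% (12.6 to 19.8) and 4.87% (4.34 to 5.44), and at 100 to 300 kb 39.7% (31.1 to 48.8) and 24.5% (22.5 to 26.6). Where the gene had a peak at its own end, a body peak was present in 21.2% (16.5 to 26.5) of genes of 30 to 100 kb, against 12.4% (11.5 to 13.4) of those without. From 100 kb on, the intervals of that last comparison overlapped. Of the 1706 hosts of all lengths, 147 (8.62%) had a peak at an end and 248 (14.5%) had one within 20 kb outside. Of all 21779 genes, 1037 (4.76%) and 1293 (5.94%) did.

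The peaks in gene bodies had a median width of 291 bp (quartiles 234 and 381 bp), those at gene ends 296 bp and intergenic ones 299 bp. Of the former 9.49% (8.38 to 10.7) were wider than 500 bp, against 12% (10.5 to 13.5) of intergenic peaks, and these intervals overlap slightly. The 5 widest lay in Map6 (1513 bp), Hemk1 (1365 bp), Gsr (1199 bp), Csf2ra (1155 bp) and Txnrd1 (1046 bp). Map6 encodes a microtubule-associated protein and Csf2ra the alpha chain of the GM-CSF receptor, while Gsr and Txnrd1 encode the reductases of glutathione and thioredoxin. The first 5 in the deposited order, whose key is not stated, lay in Vash1, Bcl6, Hemk1, Bcl2l1 and Sipa1l1. Across autosomes density ran from 2.14 per Mb of gene body on chromosome 14 (1.73 to 2.61) to 3.49 on chromosome 15 (2.92 to 4.13). On chromosome X it was 0.459 (0.281 to 0.709), from 20 peaks. Peaks of all classes were few there too, 44 against 5857 on the autosomes.

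Host genes were then described by 21 lists of genes, each beside the share of all protein-coding genes in the same length classes. The shares are descriptions without a test. In 8 lists, of lymphoid factors, signalling, survival and cell cycle, the ratio of both shares was 2.61 to 4.23 with intervals above 1. That of ARF GTPase regulators was 2.16 (1.01 to 3.61). Of all 21 lists, 19 had a ratio over 1. In the 4 lists of other cell types and tissues the intervals included 1. With only the first 2954 peaks the intervals of the cytokine (0.792 to 5.06), BCL2 (0.973 to 11.7) and cell cycle genes (0.924 to 7.48) included 1 too, as did that of the adhesion genes with only the widest 2954 (0.982 to 6.04). The widest peaks raised the ratios of BCL2 and NF-kB genes to 6.39 and 4.22. Among B lineage transcription factors 18 of 30 genes were hosts (60.0%, 40.6 to 77.3), where their length classes gave 19.5%, a ratio of 3.07. After Foxp1, Ets1 and Runx1 came Fli1 and Tcf4 with 6 each, then Bach2 with 5 and Ebf1 and Erg with 4. Ikzf1, which encodes Ikaros, had 3, and Pax5 1 in 186 kb. This list held 13.9 peaks per Mb of gene body, against 2.61 over all protein-coding genes.

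Among cytokine receptor and JAK-STAT genes 12 of 39 had a body peak (30.8%, 17 to 47.6, by length class 9.68%, ratio 3.18). None had more than 2: the feedback inhibitor Socs2 and the IL2 receptor gene Il2ra had 2 each, and Cish, Ifngr2 and Il10rb 1 each. These genes were short, with a median of 30.4 kb. Several had more peaks just outside, 5 within 20 kb of Cish and 4 of Il2ra, counted in the same restricted way. Of the genes of pre-B and B cell receptor signalling 14 of 38 had one (36.8%, by length class 13.1%, ratio 2.82). Fyn, a Src family kinase gene, had 6, Pik3cd, which encodes the leukocyte PI3 kinase catalytic subunit p110 delta, 5 in 53.4 kb, and the kinase gene Syk 3. Blnk, mutated in this mouse, had 1.

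Of the PI3 kinase, AKT and mTOR genes 11 of 22 had a body peak (28.2% to 71.8%, by length class 17.3%, ratio 2.88), with 4 in Phlpp1, a phosphatase gene that opposes AKT, 3 in Pik3c2b and 2 each in Pik3r5 and Rptor. Genes of lymphocyte adhesion and migration had one in 11 of 30 cases (36.7%, by length class 10.4%, ratio 3.52). Sipa1l1, a GTPase activator gene for Rap, had 6, and Rapgef6, an exchange factor gene for Rap, 5. Among the short genes of that list Cxcr5 (a homing chemokine receptor of B cells), Selplg (a selectin ligand) and Ccr6 had 2 each. The BCL2 family had peaks in 5 of 22 genes (22.7%, by length class 5.37%, ratio 4.23): Bcl2 had 4, Bcl2l1 3 and Mcl1, Bmf and Bcl2l11 1 each. Cell cycle genes had them in 7 of 28 (ratio 3.22), led by Cdk6, which encodes a G1 kinase, with 5, and NF-kB genes in 7 of 29 (ratio 2.61), with 3 in Nfkb1 and 2 each in Bcl3 and Nfkbiz.

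Several families were uneven. Cyth1 held 10 of the 22 peaks of the ARF regulators, of which 8 of 25 genes had a peak (ratio 2.16, 1.01 to 3.61, an interval that included 1 under 4 alternatives), with 3 each in Asap1 and Iqsec1. In the DOCK family, exchange factors for Rac and CDC42, Dock10 and Dock9 had 6 each, Dock4 and Dock1 1 each, and the other 7 genes none, among them Dock2 with 557 kb (4 of 11, ratio 1.42, 0.425 to 2.69, and 2.40 or 2.35 with only the first or widest peaks). Of the MAP kinase genes 8 of 30 had a peak (ratio 1.86, 0.858 to 3.21, but 3.23 and 3.31 with only the first or only the widest 2954 peaks of the list), with 4 in Rasa3 and 3 each in Map3k1, Spred2, Ksr1 and Map3k5. Arid1b held 10 of the 16 peaks of the chromatin remodeller genes (6 of 26, ratio 1.34), and Rad51b 8 of the 12 of the repair genes (5 of 28, ratio 1.46). Protein kinase C and diacylglycerol kinase genes had peaks in 5 of 18 cases (ratio 1.44), with 4 each in Prkch and Prkce and 3 in Prkca. Histone and DNA modifying enzymes had them in 10 of 43 (ratio 1.51), nuclear receptor and circadian genes in 8 of 29 (1.70) and E3 ubiquitin ligase genes in 6 of 28 (1.04). Examples were Hdac9 with 3 and Ezh2 with 2, Nr4a1 and Nr4a3 with 2 each, and Nedd4l with 3. Over all peaks, the intervals of the ratios in this paragraph without one printed include 1. The intervals of the ratios with only the first or widest peaks are not given here.

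For genes of other cell types the ratios lay on both sides of 1, and those of T cell and myeloid genes fell to 0.389 and 0.886 with gene ends of 2 kb. T cell genes had a body peak in 3 of 28 cases (among them Thy1 and Tox2, 1 each, ratio 1.07, 0.226 to 2.81) and myeloid genes in 2 of 24 (Csf2ra and Itgam, ratio 1.54, 0.190 to 4.99). Synaptic and neuronal genes, of which 33 of 36 were 100 kb or longer, had one in 5 (13.9%, 4.67 to 29.5, by length class 26.9%, ratio 0.516, 0.173 to 1.10). Kcnma1, a potassium channel gene, held 6 of their 14 peaks. Their density was 0.423 peaks per Mb of gene body, at a median length of 884 kb. All protein-coding genes of 300 kb and over had 1.15 per Mb. Muscle, matrix and endothelial genes had one in 4 of 30 cases (ratio 0.673, 0.190 to 1.55), with 2 in Pecam1 and 1 each in Ryr1, Ryr2 and Cdh13.

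**Figure D5:**
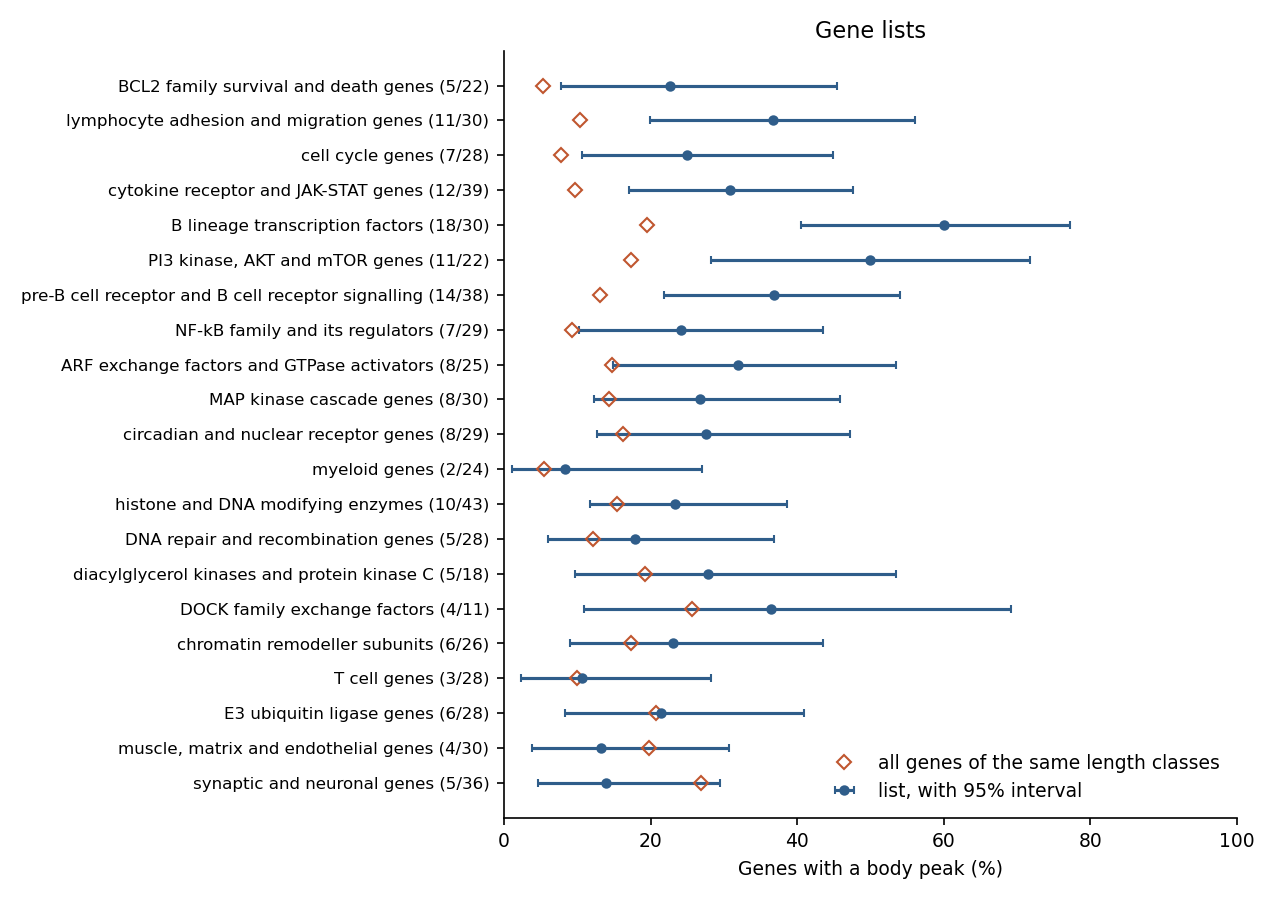
Share of the genes of each list with a peak in the gene body (circles, with exact 95% intervals) beside the share that all protein-coding genes of the same length classes give (diamonds), ordered by the ratio of both. B lineage transcription factors stand at 60.0% against 19.5%, and synaptic and neuronal genes at 13.9% against 26.9%.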

How the data were processed

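The deposited file lists STAT5 peaks by chromosome, start, end and name, with no score. Per the submitters' processing notes, mm10 was the build, and MACS2, Picard and BWA 0.7.4 were used. Their roles, settings and threshold and the use of the input are not given here, and read depth is unknown. Each peak was placed by its midpoint among RefSeq genes of GRCm38.p6. Of its protein-coding genes 21779 were kept, and 121 with a start under 3000000 bp outside chromosome Y, or on no assembled chromosome, were left out. Strand and annotated starts came from RefSeq promoter windows (17492 of 21779 genes). Usable length excluded 1 kb around every protein-coding gene end. Expected shares are sums of that length or of shares per length class, not simulations. All 590 listed genes were matched. No hypothesis test was run, since there is 1 library of each kind. Intervals are exact (Clopper-Pearson for shares, Poisson for counts).

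Named genes were the 15 hosts with most peaks (ties by density per 100 kb, then symbol), the 10 densest hosts with 3 or more, up to 5 members per list with the most peaks, and the first 5, the 5 widest and the 3 nearest the 1 kb limit on either side. Other genes named (Bach2, Ebf1, Erg, Ikzf1, Pax5, Blnk, Dock2 and the longest genes) were chosen after their values were seen. The peaks, lists and rules were chosen with earlier results of these data known, and support nothing independently. The placing code was checked on simulated peaks at known positions. The planned motif search of whole peaks needed sequence not used here and was replaced by promoter windows. Python 3.11.15, pandas 2.3.3, numpy 2.4.6 and scipy 1.17.1 were used. All columns of values were used.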

Additional observations from a re-analysis of the deposited data

Results flagged for a closer look

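Unplaced or unlocalised sequences carried 7 peaks. They entered none of the values above.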

How the results depend on the processing

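Over 15 alternatives and 36 results, 315 of 355 values stayed within the counting interval of the reported value, or, for counts, within 1.5 times. Another 39 moved further, and 1, a ratio whose reported interval lay above 1, fell below 1. The intervals of gene lists are wide: 9 list ratios crossed 1 within them, in 4 lists. These were T cell genes (0.996, 0.389 and 0.455 with gene ends of 500 bp, 2 kb and 5 kb, 0.628 with the first 2954 peaks), E3 ligases (0.947 with 5 kb, 0.586 with the first 2954, 0.871 on autosomes), and DNA repair (0.944) and myeloid genes (0.886) with 2 kb. In 5 lists an interval above 1 no longer was under at least 1 alternative. For ARF regulators its lower bound was 0.961 with 500 bp, 0.954 with 5 kb, 0.992 without predicted names and 0.801 with the first 2954. The distance that bounds gene ends (500 bp, 2 kb and 5 kb in place of 1 kb) changed what follows from it by construction: the share of peaks in gene bodies became 46.6%, 39.8% and 34.4%, the share in the outer 20% at either end of the gene (40.9%) 44.2%, 36.4% and 30.5%, and the median distance to a gene end 15602, 20609 and 25358 bp. The ratio of the first of 10 parts of the gene became 1.72, 1.17 and 0.970, the last being the value that fell below 1. With 5 kb, 52.7% lay before the midpoint of the gene and 56.7% of peaks were in hosts with 2 or more.

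The first 2954 peaks of the deposited order left 1284 peaks in gene bodies and 964 hosts, of which 22.7% had 2 or more peaks (42.7% of peaks), with a median width of 353 bp and a median gap of 13.8 kb. The MAP kinase ratio was then 3.23, that of myeloid genes 2.72 and that of synaptic genes 0.896, and 70.6% of covered windows held TTCNNNGAA. The widest 2954 peaks left 1252 and 933, with 23.9% and 43.7%, a width of 386 bp, 53.7% before the midpoint, ratios of 4.07 for B lineage factors 3.31 for MAP kinase genes and 0.848 for synaptic genes, and 1.61 for the density past the start relative to that before the end. Joining peaks closer than 5 kb gave 21.3% and 41.8%, a width of 307 bp, a gap of 28.0 kb and TTCNNNGAA in 35.8% of windows. In hosts of 100 kb or longer the first part was at 1.10 and 50.5% lay before the midpoint. Without 1 kb around annotated starts, chosen after seeing the data, these were 1.23 and 53.6%. The subsets hold fewer or wider peaks by construction, and otherwise the cause was not tested. The use of whole intervals, of autosomes alone, of named genes alone, of peaks with 1 host and, chosen after seeing the data, of other window coverage and without the peak in 21 genes moved no value beyond its counting interval or, for counts, 1.5 times. The search 100 bp either side of midpoints was not run. No paired analysis was possible because there is 1 library of each kind. Depth cannot be judged: no listed peak does not mean no binding.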

Other observations

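Of the 2571 peaks in gene bodies, 165 (6.42%) also lay inside another annotated gene, in 159 cases a lncRNA gene. Examples among the covered promoter windows were Gm26876 inside Ikzf4 and Gm16174 inside Bcl3, with 2 and 1 matches of TTCNNNGAA.

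In windows covered by peaks in gene bodies, 23 of 43 matches (53.5%, 37.7 to 68.8) had a pyrimidine first and a purine last in the spacer. In windows covered by peaks at gene ends it was 150 of 198 (75.8%, 69.2 to 81.6), and in uncovered windows inside genes 262 of 512 (51.2%, 46.7 to 55.6). The difference between the peak classes was not tested, and what moves with it was not examined.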
